A study of Danio rerio with 6 samples.

Results

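Oxidative phosphorylation (OXPHOS) subunits are described here in the injured zebrafish endocardium, the layer of cells that lines the inside of the heart. Genes were chosen by symbol alone: those beginning with nduf, sdha to sdhd, uqcr, cox4 to cox8 or atp5, and cyc1, with a mean normalised read count above 5 over the 6 libraries. This rule took 99 of the 17835 genes listed, namely 44 of complex I, 9 of complex II, 9 of complex III, 18 of complex IV and 19 of complex V. All genes that matched by symbol were above the limit on the mean, with the lowest at 16.5 (uqcrb) and the highest at 9114 (atp5f1b), and all 99 are protein-coding and spread over 25 chromosomes. Besides subunits, the prefixes take in 11 assembly factors of complexes I and II and 2 inhibitors of ATP synthase.

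The respiratory chain sits in the inner mitochondrial membrane. Complexes I and II pass electrons from NADH and succinate to ubiquinone, complex III passes them on to cytochrome c, and complex IV passes them to oxygen. Complexes I, III and IV pump protons, and complex V, the ATP synthase, uses the proton gradient to make ATP. The core subunits that the mitochondrial genome encodes are built into the same complexes, but reads from mitochondria were removed before counting, so only nuclear genes are described. Endothelial cells are known to draw much of their ATP from glycolysis, whereas heart muscle cells hold far more respiratory chain.

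RNA was sequenced from cells sorted from cryoinjured ventricles of adult myd88-/- zebrafish (allele hu3568) and of their myd88+/+ siblings at 96 hours post cryoinjury (hpci). Both genotypes carried ET(krt4:EGFP), an enhancer trap that drives EGFP in the endocardium, and cells were gated on EGFP. MyD88 is an adaptor of Toll-like receptor signalling, and the mutation was present in every cell of the fish, not in the endocardium alone. Each genotype had 3 libraries, each from a pool of 4 ventricles. Values are counts that the authors normalised with DESeq2, by a scaling factor for each library, and rounded. These values summed to 11348450, 11136966 and 11233913 in myd88-/- libraries, against 11765403, 11847536 and 11530505 in myd88+/+ libraries, without overlap.

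The targeted gene was read first as a check of the labels. myd88 had normalised read counts of 817, 575 and 849 in myd88-/- libraries, against 1305, 1149 and 1070 in myd88+/+ libraries, so the genotypes did not overlap (log2 fold change -0.67 ± 0.17 SE, adjusted p = 0.150). Of 14 endothelial and endocardial markers, aplnra, an apelin receptor, passed the criteria upward (background 0.702% of all genes) and the others did not pass. At an unadjusted p under 0.05 in limma's test, 4 of the 14 were higher and 2 lower (background 6.2% and 6.97%). These markers thus moved in both directions. Genes of heart muscle were present as well. All 14 cardiomyocyte markers tested were detected in every library, and their summed level was 18725 to 26186 in myd88-/- libraries and 18648 to 29871 in myd88+/+ libraries. mb, the oxygen-binding myoglobin, stood at 126637, 107390 and 112121 in myd88-/- libraries, against 97335, 104320 and 96346 in myd88+/+ libraries. The genotypes did not overlap for mb (log2 fold change 0.21 ± 0.19 SE, adjusted p = 0.671). It was highest in myd88-/- replicate 1, where the summed markers were the lowest of that genotype. In every library mb was far above the 14 markers summed, and which cells it came from was not tested. The 9 macrophage markers summed to 1086 to 2586 in myd88-/- libraries and 1852 to 4380 in myd88+/+ libraries. Of these 9, 8 had a negative fold change (median -0.75 on the log2 scale). At an unadjusted p under 0.05, 4 were lower (background 6.97%), and none passed the criteria. The 8 erythrocyte markers summed to 291 to 837 in myd88-/- libraries and 45 to 530 in myd88+/+ libraries. All 8 had a positive fold change (median 1.22), with none under that p. In bulk samples, fewer cells of a type and less RNA per cell cannot be told apart.

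No OXPHOS gene passed the criteria of an adjusted p under 0.05 and a change above 1.5-fold, for which the background was 0.702% of the 16383 genes tested. Fold changes are myd88-/- over myd88+/+, from limma on log2(value + 1). The smallest adjusted p among the 99 genes was 0.172. At an unadjusted p under 0.05, 7 of the 99 genes were lower in myd88-/- libraries, where the background was 6.97% of all genes, and 0 were higher, where it was 6.2%. All 3 myd88-/- libraries were below all 3 myd88+/+ libraries for 7 genes (background 8.98%) and above them for 1 gene, ndufaf7 (background 9.09%). The shares in the lower direction are close to those over all genes.

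Small negative fold changes were nevertheless more frequent than positive ones. The fold change was below 0 for 75 of the 99 genes (75.8%), against 48.9% of all genes tested, and above 0 for 24. The median log2 fold change was -0.14, against 0.01 over all genes, with a range of -0.55 to 0.41. Scaling libraries to equal totals moved the median of all genes to 0.07 and left 6871 of the 16383 genes tested negative. Under that scaling, 64 of the 99 OXPHOS genes had a negative fold change and their median was -0.08. The 95% confidence interval of the fold change lay within 1.5-fold in either direction for 53 of the 99 genes and within 2-fold for 92, so for those 92 a change of 2-fold or more lies outside the interval. Over all genes the share within 2-fold was 64.7%, and the OXPHOS genes varied less between libraries of one genotype (median SD 0.21 on the log2 scale, against 0.27). That share depended on level. With a mean above 1000 it was 100% of OXPHOS genes and 90.9% of other genes, and with a mean of 300 or below it was 83.7% and 50.1%. The SD was not compared at matched levels.

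The sums over all 99 genes overlapped between the genotypes. The summed normalised read count was 73963, 83277 and 67876 in myd88-/- libraries, against 77830, 83237 and 75752 in myd88+/+ libraries. As a share of the library this was 0.652%, 0.748% and 0.604% in myd88-/- libraries, against 0.662%, 0.703% and 0.657% in myd88+/+ libraries. The lowest and the highest of these 6 shares were thus both myd88-/- libraries. The sum is carried by a few abundant genes, whose fold changes were nearer to 0. The median was -0.07 for the 21 genes with a mean above 1000 and -0.16 for the other 78. For genes outside the OXPHOS group, the medians were -0.05 above that level (57.5% negative) and 0.02 at or below it (47.4% negative). Across genes, which are not independent replicates, Spearman's correlation between mean level and fold change was 0.05 over the 99 genes.

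**Figure D1:**
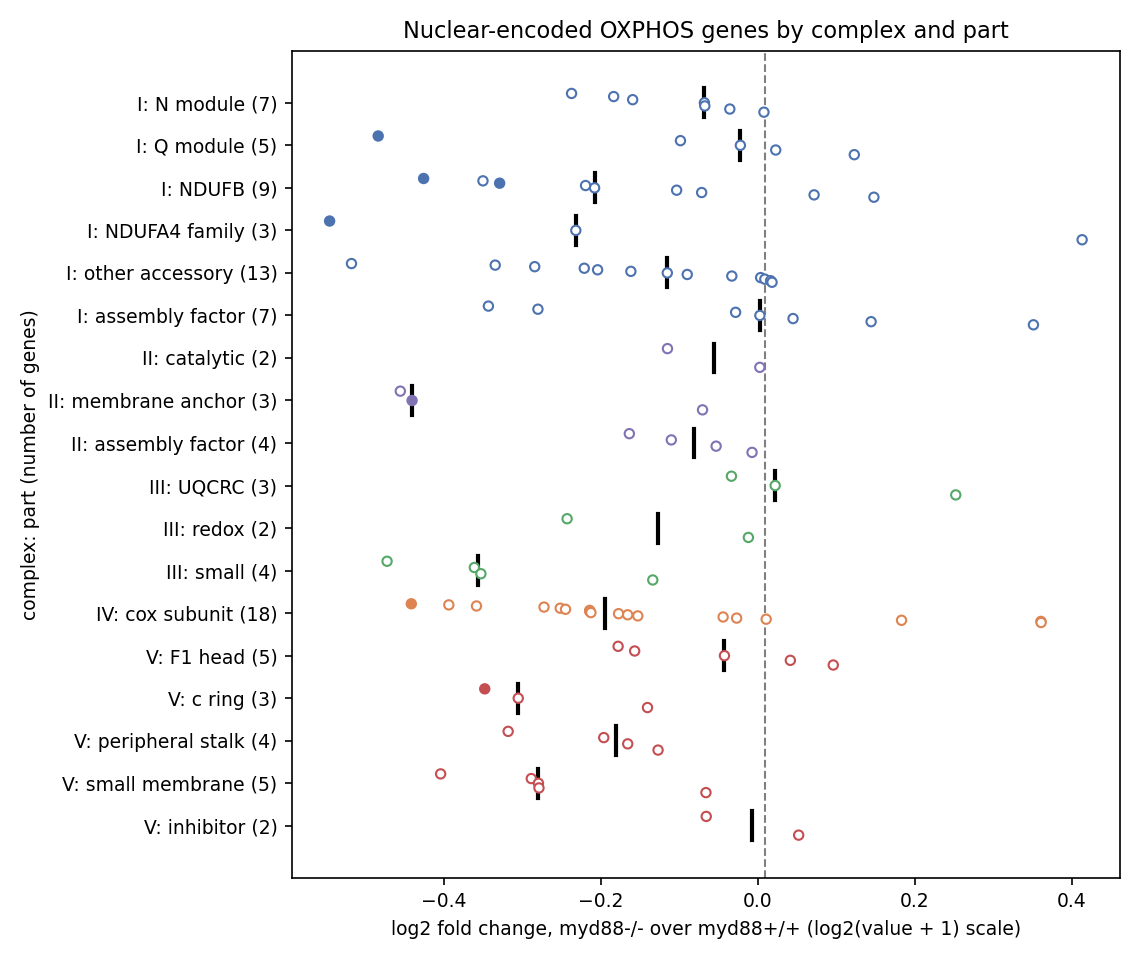
Log2 fold change of each of the 99 genes, myd88-/- over myd88+/+, by complex and part. Each point is a gene, filled where the unadjusted p was under 0.05, black bars are medians, and the dashed line is the median of all 16383 genes tested (0.01). The 7 filled points all lie to the left, between -0.55 and -0.33.

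By complex, the median log2 fold change was -0.09 for complex I, -0.11 for complex II, -0.13 for complex III, -0.20 for complex IV and -0.17 for complex V. The fold change was negative for 30 of 44 genes in complex I, 8 of 9 in complex II and 7 of 9 in complex III. It was negative for 14 of 18 in complex IV and 16 of 19 in complex V, against 48.9% of all genes. These counts and medians include 7 assembly factors in complex I (3 negative), 4 in complex II (all negative) and 2 inhibitors in complex V. In the plot of fold changes by part, single genes of a complex spread more widely than the 5 medians. Medians over many genes vary less than single genes, so this does not compare the complexes. Scaling to equal totals moved each of the 5 medians toward 0, to between -0.14 in complex IV and -0.04 in complex I, and turned none of them. The median of all genes moved up as well, from 0.01 to 0.07. With 1 library left out in turn, the medians ran over -0.19 to -0.05 for complex I, -0.18 to -0.07 for complex II, -0.32 to -0.02 for complex III, -0.31 to -0.07 for complex IV and -0.26 to -0.12 for complex V. For complexes III, IV and V the lowest came without myd88-/- replicate 2 and the highest without myd88-/- replicate 1. Complex I was lowest without myd88-/- replicate 2 and highest without myd88+/+ replicate 2, and complex II was lowest without myd88+/+ replicate 3 and highest without myd88+/+ replicate 1. The order of the complexes also moved, since without myd88-/- replicate 1 the median was -0.13 for complex II and -0.07 for complex IV. Whether one complex differed from another was not tested.

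The genotypes overlapped in the median level of the OXPHOS genes. Over the 99 genes, the median deviation of log2(value + 1) from the mean of each gene was -0.19, 0.11 and -0.15 in myd88-/- replicates 1, 2 and 3, against 0.13, 0.15 and -0.06 in myd88+/+ replicates 1, 2 and 3. myd88-/- replicate 2 thus lay with the higher myd88+/+ libraries, and myd88+/+ replicate 3 lay below it. myd88-/- replicate 1 was the lowest of the 6 libraries for 44 of the 99 genes and myd88-/- replicate 3 for 28, whereas myd88-/- replicate 2 was the highest for 29. Complexes I, III, IV and V shared this order in outline, and in complex II myd88-/- replicate 2 was at -0.03.

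**Figure D2:**
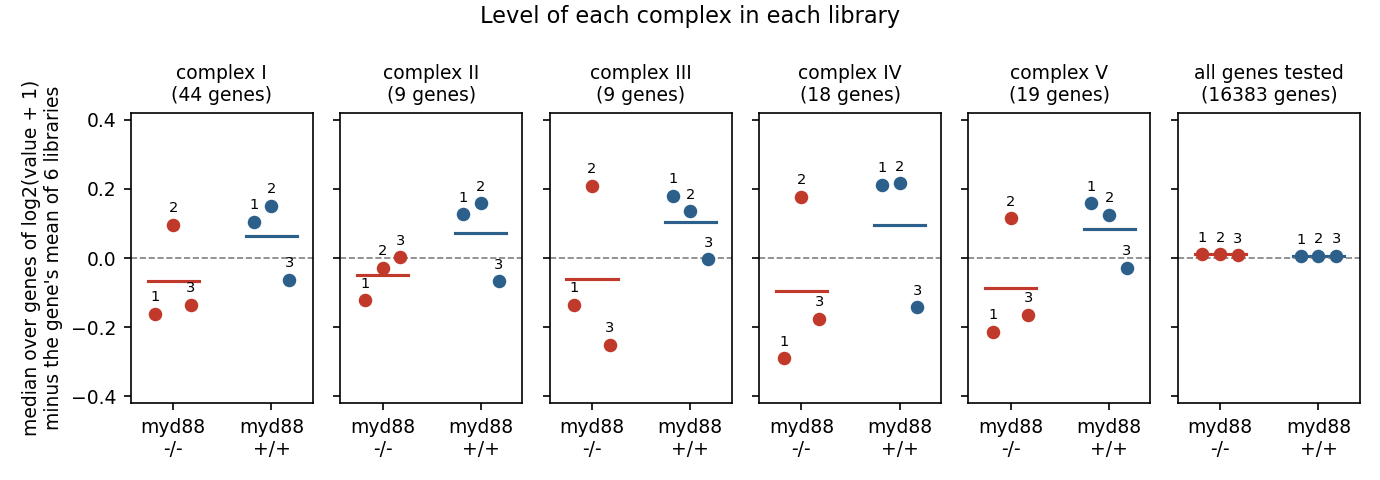
Median, over the genes of each complex and over all genes tested, of log2(value + 1) minus the mean of the gene over the 6 libraries. Points are libraries with their replicate numbers, and lines are means of the 3 libraries of a genotype. Replicate 2 of myd88-/- is above 0 in complexes I, III, IV and V, and replicate 3 of myd88+/+ is below 0 in all 5 complexes.

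The number of genes lower at an unadjusted p under 0.05 depended on single libraries. It was 7 with all libraries. Leaving out replicate 1, 2 or 3 of myd88-/- gave 1, 21 and 5 genes in that order, where the shares of all genes lower in the same fits were 5.09%, 6.69% and 9.49%. Leaving out replicate 1, 2 or 3 of myd88+/+ gave 2, 2 and 16 genes, beside shares of all genes of 5.19%, 4.82% and 7.62%. The median over the 99 genes kept its sign in all of these, at -0.08 without myd88-/- replicate 1 and -0.22 without myd88-/- replicate 2. No OXPHOS gene passed the criteria in any of them. Cardiomyocyte markers had median deviations of -0.20, 0.26 and -0.06 in myd88-/- replicates 1, 2 and 3, against -0.24, 0.24 and 0.12 in myd88+/+ replicates 1, 2 and 3. The OXPHOS genes stood at -0.19, 0.11 and -0.15 in the same myd88-/- libraries, so both sets were highest in replicate 2 and lowest in replicate 1. Replicate 2 was also the highest myd88+/+ library in both sets. In myd88+/+ replicate 1 the cardiomyocyte markers were at their lowest of the 6 libraries, whereas the OXPHOS genes stood at 0.13. The order of the libraries was thus shared among myd88-/- libraries and differed among myd88+/+ libraries. The part of cardiomyocyte RNA in the OXPHOS values was not tested.

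Complex I takes electrons from NADH in its N module, passes them to ubiquinone in its Q module, and pumps protons in a membrane arm that holds the NDUFB accessory subunits. For the 7 genes of the N module, which include the NADH-binding ndufv1, the median was -0.07 on the log2 scale. For the 5 of the Q module it was -0.02, and 0.04 with equal totals, where the median of all genes was 0.07. In the NDUFB group the median was -0.21, with 7 of 9 genes negative. The 13 other accessory subunits had a median of -0.12. ndufv1 itself had normalised read counts of 1137, 1173 and 994 in myd88-/- libraries, against 1017, 1181 and 1271 in myd88+/+ libraries, and the genotypes overlapped.

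A single gene of the Q module stood apart from its 4 neighbours. ndufs8a (ENSDARG00000051986, chromosome 1, 44814322 to 44823071, danRer11), one of the iron-sulfur subunits, had 357, 542 and 404 normalised read counts in myd88-/- libraries, against 574, 669 and 558 in myd88+/+ libraries. The genotypes did not overlap, though myd88-/- replicate 2 came close to the lowest myd88+/+ library. On the log2 scale the difference was -0.48 ± 0.17 (SE), and limma's test gave an unadjusted p of 0.0215 (adjusted p = 0.283).

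In the NDUFB group, 2 of 9 genes, ndufb2 and ndufb5, did not overlap between the genotypes (background 8.98% with all myd88-/- values lower). ndufb2 (chromosome 4, 22480169 to 22483131) had 270, 321 and 318 counts in myd88-/- libraries, against 464, 435 and 332 in myd88+/+ libraries (log2 fold change -0.43 ± 0.17 SE, adjusted p = 0.323). ndufb5 (chromosome 6, 29402997 to 29410091) had 457, 552 and 484 counts in myd88-/- libraries, against 632, 659 and 582 in myd88+/+ libraries (log2 fold change -0.33 ± 0.13 SE, adjusted p = 0.332). For both genes the gap between the genotypes was small, set by myd88+/+ replicate 3 and myd88-/- replicate 2. The highest of the group, ndufb11, had a log2 fold change of 0.15 at a mean of 46.2 counts, and it overlaps another listed gene on the genome.

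The NDUFA4 genes held both the lowest and the highest fold change of all 99. NDUFA4 is named for complex I but in mammals is a subunit of complex IV. ndufa4l (ENSDARG00000099499, chromosome 3, 20947560 to 20957083) had 817, 900 and 845 normalised read counts in myd88-/- libraries, against 1467, 1292 and 1021 in myd88+/+ libraries. The genotypes did not overlap, and the 3 myd88-/- libraries were close together (854 ± 42.2, against 1260 ± 225 in myd88+/+ libraries, SD, n = 3 each). The difference of -0.55 ± 0.15 (SE) on the log2 scale had an unadjusted p of 0.00552 but an adjusted p of 0.172, so the gene did not pass.

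Its relative ndufa4 (ENSDARG00000056108, chromosome 12, 9880493 to 9884326) had a positive fold change. It had 477, 547 and 431 counts in myd88-/- libraries, against 237, 488 and 411 in myd88+/+ libraries (0.41 ± 0.25 SE on the log2 scale, adjusted p = 0.519). The genotypes overlapped, and the fold change was 0.11 without myd88+/+ replicate 1. ndufa4l2a, whose mammalian counterpart is induced by hypoxia, had 66, 34 and 112 counts in myd88-/- libraries, against 70, 111 and 53 in myd88+/+ libraries, and was the most variable of the 3 genes.

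**Figure D3:**
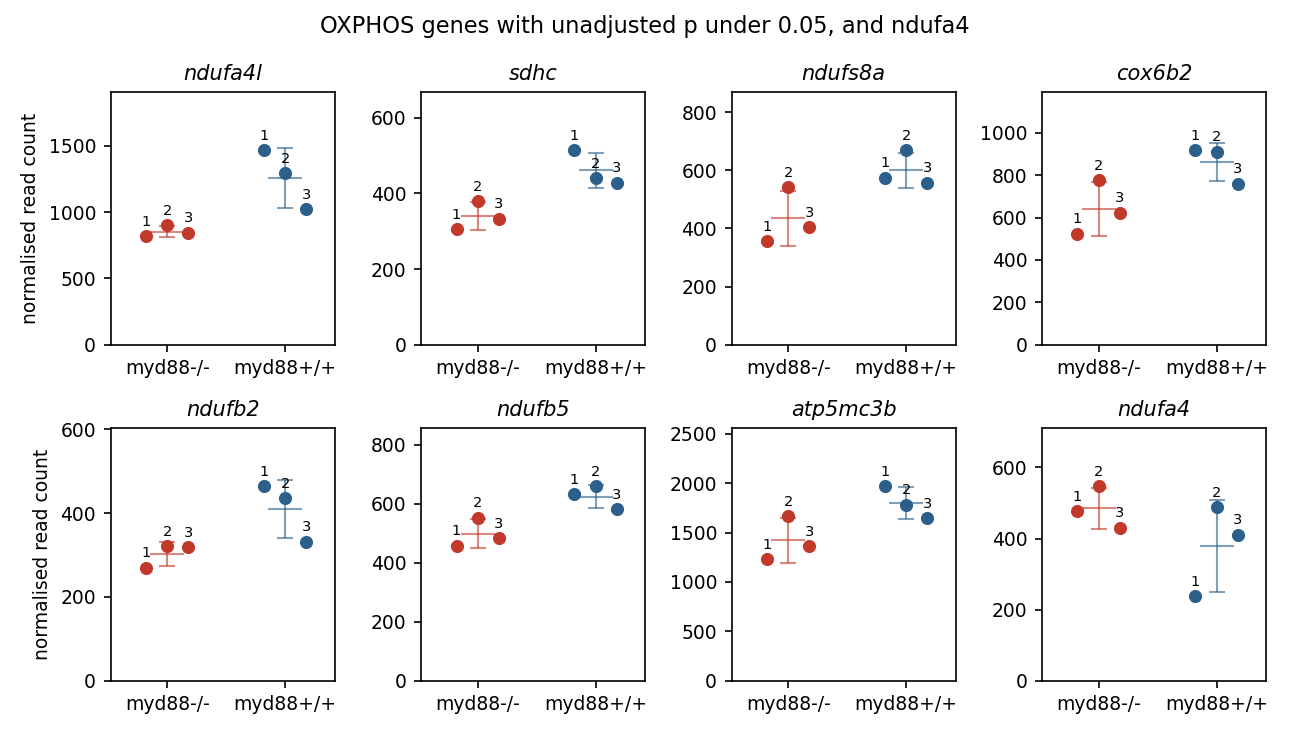
Normalised read counts in each library for the 7 genes with an unadjusted p under 0.05 and for ndufa4. Points carry replicate numbers, and bars are the mean ± SD of 3 libraries. The genotypes do not overlap for ndufa4l, sdhc, ndufs8a, ndufb2 and ndufb5, and overlap for cox6b2, atp5mc3b and ndufa4.

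Assembly factors, which help to build a complex and are not part of it, lay near the median of all genes. The median was -0.03 over the 7 ndufaf and 4 sdhaf genes, of which 7 were negative and 4 positive. With equal totals this median was 0.03, where the median of all genes was 0.07. ndufaf7, a methyltransferase that modifies a complex I subunit in mammals, was the only one of the 99 genes whose myd88-/- values all lay above the myd88+/+ values. It had 120, 94 and 102 counts in myd88-/- libraries, against 68, 87 and 93 in myd88+/+ libraries (0.35 ± 0.21 SE, adjusted p = 0.508). ndufaf4 was the lowest of them, at -0.34 with a mean of 41.5 counts.

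Complex II, succinate dehydrogenase, is the only complex that also works in the citric acid cycle. sdha, which binds FAD and oxidises succinate, had 2142, 2038 and 1894 counts in myd88-/- libraries, against 1924, 2238 and 2441 in myd88+/+ libraries (-0.12 ± 0.13 SE on the log2 scale), and sdhb, the iron-sulfur subunit, had a log2 fold change of 0.00 ± 0.15 (SE). The membrane anchors, which bind ubiquinone, gave a median of -0.44 over 3 genes. sdhc (ENSDARG00000038608, chromosome 2, 44192652 to 44199840) had 306, 379 and 333 counts in myd88-/- libraries, against 514, 440 and 428 in myd88+/+ libraries.

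The genotypes did not overlap for sdhc, which differed by -0.44 ± 0.14 (SE) on the log2 scale (unadjusted p = 0.0139, adjusted p = 0.242). The fish has a pair of sdhd genes. The first, sdhda, had 30, 47 and 48 counts in myd88-/- libraries, against 68, 57 and 46 in myd88+/+ libraries (-0.46 ± 0.28 SE on the log2 scale). The other, sdhdb, had 894, 1097 and 874 counts in myd88-/- libraries, against 1040, 1109 and 861 in myd88+/+ libraries (-0.07 ± 0.15 SE). Both overlapped between the genotypes, so among the 3 anchors only sdhc was separated (background 8.98% with all myd88-/- values lower).

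In complex III, which moves electrons from ubiquinol to cytochrome c, the UQCRC core proteins were near the median of all genes and the small subunits below it. uqcrc1, a core protein on the matrix side, had 4708, 4891 and 3734 counts in myd88-/- libraries, against 3263, 3868 and 4034 in myd88+/+ libraries (0.25 ± 0.15 SE), with overlapping genotypes. The redox subunits gave -0.01 for cyc1, cytochrome c1, and -0.24 for uqcrfs1, the Rieske iron-sulfur protein. All 4 small subunits were negative, with a median of -0.36. uqcr10 was the lowest, with 96, 174 and 124 counts in myd88-/- libraries, against 226, 184 and 134 in myd88+/+ libraries (-0.47 ± 0.27 SE, adjusted p = 0.488). None of the 9 genes of this complex was separated between the genotypes (background 8.98% with all myd88-/- values lower, 9.09% with all higher). With so few genes this says little. The share of the library summed over complex III had a mean that was slightly higher in myd88-/- libraries (log2 ratio 0.08), opposite in sign to the median over its genes, because uqcrc1 holds much of the sum.

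Complex IV, cytochrome c oxidase, has many subunits that exist in tissue-specific isoforms. cox6b2 (ENSDARG00000037860, chromosome 16, 12504929 to 12512593), an isoform of the subunit on the side where cytochrome c docks, had 524, 777 and 623 counts in myd88-/- libraries, against 918, 911 and 761 in myd88+/+ libraries. The difference of -0.44 ± 0.17 (SE) on the log2 scale had an unadjusted p of 0.0261 (adjusted p = 0.307). myd88-/- replicate 2 was above myd88+/+ replicate 3. cox8a had 133, 184 and 128 counts in myd88-/- libraries, against 195, 198 and 185 in myd88+/+ libraries, which narrowly did not overlap (-0.39 ± 0.18 SE, adjusted p = 0.401). cox4i2, the isoform of subunit 4 that hypoxia induces in mammals, had 595, 550 and 579 counts in myd88-/- libraries, against 757, 697 and 607 in myd88+/+ libraries, and did not overlap either (-0.25 ± 0.13 SE, adjusted p = 0.451). These were the 2 of 18 genes of complex IV with all myd88-/- values lower (background 8.98%).

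The highest fold changes of complex IV were those of cox4i1l and cox5b2, both 0.36. cox4i1l had 275, 255 and 263 counts in myd88-/- libraries, against 154, 303 and 186 in myd88+/+ libraries, and the genotypes overlapped. It lies on chromosome 24, 8.04 Mb from myd88, and the part of linkage to the mutated locus in its value was not tested. The isoforms that predominate in mammalian heart and muscle gave log2 fold changes of 0.01 for cox6a2, 0.18 for cox7a1 and -0.17 for cox8b, and the genotypes overlapped for each. cox7a2l, which helps complexes III and IV to join in supercomplexes, had 284, 404 and 330 counts in myd88-/- libraries, against 516, 448 and 346 in myd88+/+ libraries (-0.36 ± 0.19 SE, adjusted p = 0.467), with overlap. It also overlaps another listed gene on the genome.

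Complex V makes ATP in its F1 head, which a rotating c ring in the membrane drives while a peripheral stalk holds it still. The F1 head was near 0: its 5 genes had a median of -0.04, and 0.02 with equal totals, where the median of all genes was 0.07. atp5f1b, the catalytic beta subunit and the gene with the highest mean count of the 99, had 10027, 9841 and 8404 counts in myd88-/- libraries, against 8260, 9411 and 8740 in myd88+/+ libraries (0.10 ± 0.13 SE). The c ring genes had a median of -0.31 over 3 genes, the small membrane subunits -0.28 over 5 and the peripheral stalk -0.18 over 4. All of these 12 genes were negative under the deposited scaling, where 48.9% of all genes were, and with equal totals. None of the 12 was separated between the genotypes (background 8.98% with all myd88-/- values lower), since myd88-/- replicate 2 was above myd88+/+ replicate 3 for each. Genes that move together over the same libraries are not separate observations. The inhibitors atp5if1a and atp5if1b, which stop ATP synthase from running in reverse, gave 0.05 and -0.07.

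The c ring gene atp5mc3b (ENSDARG00000009447, chromosome 6, 10830844 to 10835922) was the only one of complex V with an unadjusted p under 0.05. It had 1231, 1669 and 1363 counts in myd88-/- libraries, against 1969, 1782 and 1647 in myd88+/+ libraries, where myd88-/- replicate 2 was above myd88+/+ replicate 3. It differed by -0.35 ± 0.14 (SE) on the log2 scale (unadjusted p = 0.0397, adjusted p = 0.353). In mammals the c ring genes encode the same mature protein, and reads with more than one place in the genome had been removed, so values of these copies may be incomplete.

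Pairs of related genes were compared as ratios within a library, which no scaling of the library can change. Of 19 pairs, 6 did not overlap between the genotypes, and the share among other pairs of genes was not computed. Among single genes, which are not ratios, the share was 8.98% with all myd88-/- values lower and 9.09% with all higher. Whether 6 of 19 is more than for other pairs was therefore not tested. All 6 ratios were lower in myd88-/- libraries, but which gene was put first is arbitrary and sets that direction. Permuting the 3 and 3 libraries in every way, an exact two-sided test, gave p = 0.1 for each of these, the smallest this design allows, and the adjusted p over the 19 pairs was 0.317. Pairs that share a gene, such as those of cox4i1l or atp5mc1, are not separate observations.

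The widest of these differences was between the NDUFA4 genes. There were 1.71, 1.65 and 1.96 ndufa4l reads for each ndufa4 read in myd88-/- libraries, against 6.19, 2.65 and 2.48 in myd88+/+ libraries. The genotypes were apart by -0.96 on the log2 scale, and by -0.54 without myd88+/+ replicate 1, whose ratio was far above the others. The ratio of cox4i2 to cox4i1l was 2.16, 2.16 and 2.20 in myd88-/- libraries, against 4.92, 2.30 and 3.26 in myd88+/+ libraries, a difference of -0.61 that was -0.33 without the same library. In both pairs the 3 myd88-/- libraries were close together and the myd88+/+ libraries spread upward from them.

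The other 4 pairs differed by less. The ratio of cox6b2 to cox6b1 was 0.80, 0.95 and 1.05 in myd88-/- libraries, against 1.39, 1.17 and 1.16 in myd88+/+ libraries (log2 difference -0.42). That of ndufab1a to ndufab1b, both of which encode the mitochondrial acyl carrier protein, was 1.25, 1.32 and 1.20 in myd88-/- libraries, against 1.43, 1.43 and 1.40 in myd88+/+ libraries, a difference of -0.17. The pairs cox5aa to cox5ab and atp5mc1 to atp5mc3a differed by -0.23 and -0.16. The muscle-type to ubiquitous pairs cox6a2 to cox6a1 (0.22), cox7a1 to cox7a2a (0.37) and cox8b to cox8a (0.23) overlapped.

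**Figure D4:**
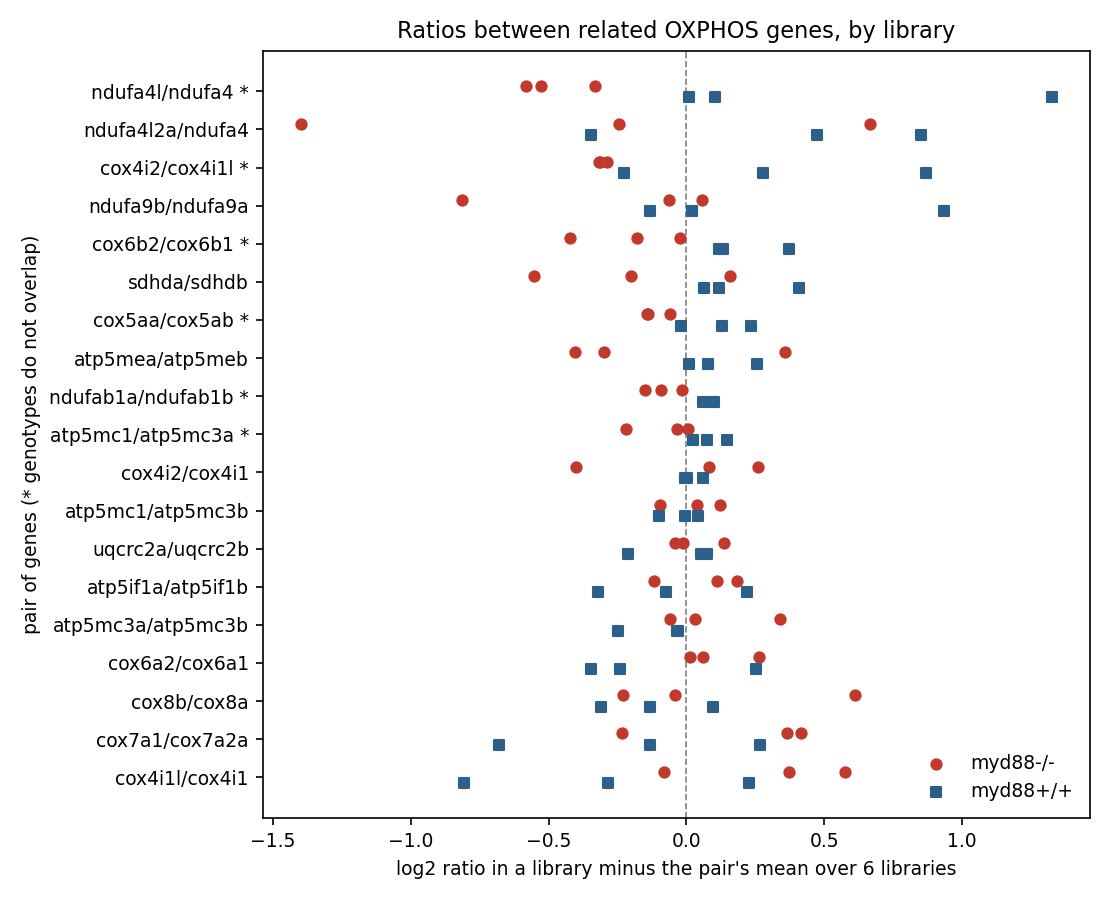
Log2 ratio of 19 pairs of related genes in each library, minus the mean of the pair over the 6 libraries. Circles are myd88-/- libraries and squares are myd88+/+ libraries, and an asterisk marks the 6 pairs whose genotypes do not overlap. The ndufa4l to ndufa4 pair has the widest difference, -0.96, with 1 square far to the right.

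Other genes that serve the respiratory chain were read as lists. Of 24 genes of the TIM and TOM complexes, which import proteins into mitochondria, 20 had a negative fold change, with a median of -0.20. At an unadjusted p under 0.05, 4 of them were lower. Over all genes tested, 48.9% were negative and 6.97% were lower at that p. timm50, a receptor of the inner-membrane translocase, fell: it had 93, 102 and 87 counts in myd88-/- libraries, against 180, 171 and 183 in myd88+/+ libraries (log2 fold change -0.92, adjusted p = 0.0489). timm17a, a channel subunit of that translocase, had 1258, 1643 and 1318 counts in myd88-/- libraries, against 2380, 2529 and 2180 in myd88+/+ libraries (-0.76, adjusted p = 0.0523). Neither overlapped between the genotypes, but timm50 passed the criteria under only 3 of the 14 alternative settings, over which its adjusted p ran between 0.0366 and 0.211.

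Genes of the mitochondrial ribosome, which translates the subunits encoded in mitochondrial DNA, were negative in 61 of 74 cases, with a median of -0.11. At an unadjusted p under 0.05, 4 were lower and 2 were higher, and none passed the criteria. Both shares were below those over all genes, 6.97% lower and 6.2% higher, while 48.9% of all genes were negative. Of 31 assembly factors outside the OXPHOS prefixes, 21 were negative (median -0.11), with 2 lower at an unadjusted p under 0.05 and 0 higher. The 19 genes of the citric acid cycle and pyruvate dehydrogenase, which supply the NADH, lay around 0, with 9 negative, 10 positive and a median of 0.00. Of these, only ogdhb was lower at an unadjusted p under 0.05 (70, 61 and 29 counts in myd88-/- libraries, against 100, 93 and 91 in myd88+/+ libraries, adjusted p = 0.275).

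Of 14 genes for ubiquinone and cytochrome c, 5 were negative and 9 positive, with a median of 0.10 (0.01 over all genes). At an unadjusted p under 0.05, 3 were lower and 2 higher (background 6.97% and 6.2%). coq8aa, an atypical kinase needed for ubiquinone synthesis, had 187, 206 and 292 counts in myd88-/- libraries, against 118, 109 and 139 in myd88+/+ libraries (0.88, adjusted p = 0.126). pdss1, which makes the tail of ubiquinone, had 125, 173 and 121 counts in myd88-/- libraries, against 231, 226 and 193 in myd88+/+ libraries (-0.64, adjusted p = 0.196). Genes of this list were thus separated in both directions, with none past the criteria. All myd88-/- values were lower for 3 of the 14 (background 8.98%) and higher for 2 (background 9.09%).

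Of 14 regulators of mitochondrial biogenesis, 5 were negative and 9 positive, with a median of 0.11. ppargc1b, a coactivator that promotes OXPHOS genes, had 140, 130 and 89 counts in myd88-/- libraries, against 170, 224 and 225 in myd88+/+ libraries (-0.80, adjusted p = 0.172). nrf1, a transcription factor of nuclear OXPHOS genes, had 473, 397 and 422 counts in myd88-/- libraries, against 275, 359 and 351 in myd88+/+ libraries (0.40, adjusted p = 0.322). Neither overlapped between the genotypes, and they lay on opposite sides. Of the 14 regulators, 2 had all myd88-/- values lower (background 8.98%) and 2 had all higher (background 9.09%). At an unadjusted p under 0.05, 1 was lower and 2 were higher (background 6.97% and 6.2%). ppargc1a, the better known coactivator of this family, had at most 30 counts in any library.

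ATP leaves mitochondria through the ADP/ATP carriers. slc25a5, one of these carriers, had 25415, 26797 and 26920 counts in myd88-/- libraries, against 29190, 30769 and 28849 in myd88+/+ libraries (-0.17, adjusted p = 0.656), with no overlap. slc25a4 had 1, 0 and 7 counts in myd88-/- libraries, against 18, 15 and 21 in myd88+/+ libraries (adjusted p = 0.158), at levels where counting error is large. These were the 2 genes without overlap among 6 of ATP and phosphate transport (background 8.98% with all myd88-/- values lower). Of the 6, 4 were negative and 2 positive, with a median of -0.09, where 48.9% of all genes were negative. Of 7 targets of hypoxia-inducible factor, egln3, an oxygen-sensing prolyl hydroxylase, was the one with an unadjusted p under 0.05 (background 6.97% lower, 6.2% higher). It had 2948, 2488 and 3213 counts in myd88-/- libraries, against 4187, 7541 and 5924 in myd88+/+ libraries (-0.996 ± 0.209 SE, adjusted p = 0.0847), and the other 6 had fold changes of both signs.

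Negative fold changes extended beyond mitochondria. Among 75 cytosolic ribosomal protein genes, a list added after these data had been seen, 74 were negative (48.9% of all genes were). The median over these 75 genes was -0.45 on the log2 scale. Of them, 48 were lower at an unadjusted p under 0.05 (background 6.97%), with none past the criteria. Their median deviation was -0.51, -0.12 and -0.08 in myd88-/- replicates 1, 2 and 3, against 0.45, 0.26 and 0.00 in myd88+/+ replicates 1, 2 and 3. As with the OXPHOS genes, myd88-/- replicate 1 was the lowest library and myd88+/+ replicate 3 the lowest of its genotype. The other myd88-/- libraries differed: replicates 2 and 3 stood at 0.11 and -0.15 for the OXPHOS genes. All myd88-/- values lay below all myd88+/+ values for 42 of the 75 ribosomal protein genes, against 7 of the 99 OXPHOS genes (background 8.98%). What moved the 2 groups of genes in these libraries was not tested.

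**Figure D5:**
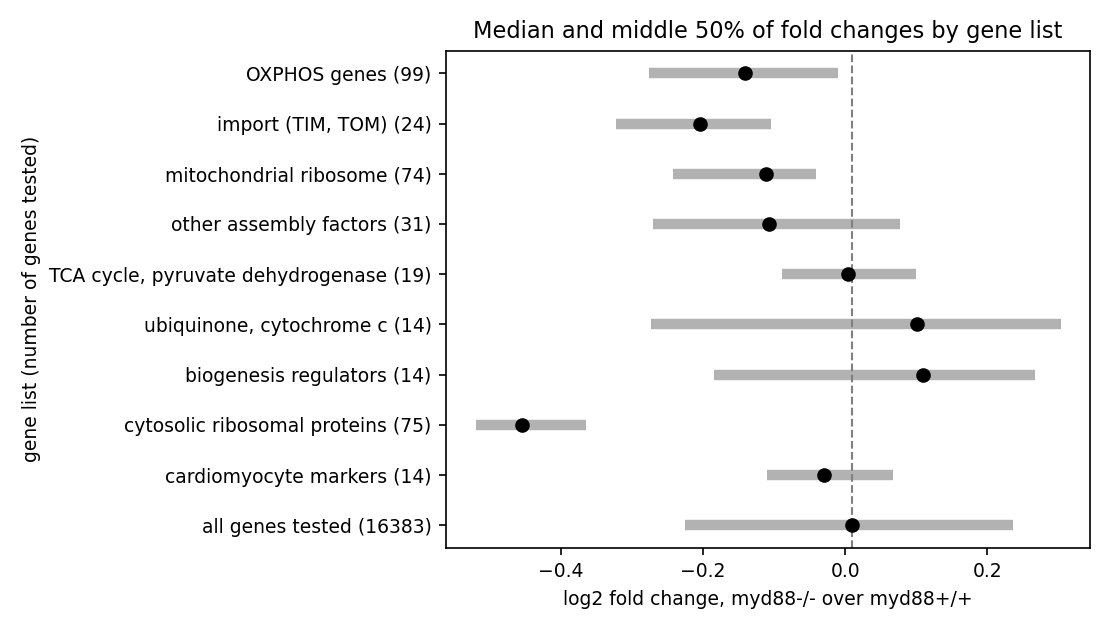
Log2 fold change, myd88-/- over myd88+/+, for the OXPHOS genes and other lists. Points are medians, grey bars span the middle 50% of genes, and the dashed line is the median of all genes tested (0.01). OXPHOS genes (-0.14) lie between cytosolic ribosomal proteins (-0.45) and genes of the citric acid cycle (0.00).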

How the data were processed

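Per the labels and the study's methods, polyadenylated RNA of sorted cells was sequenced, and the authors used Trimmomatic 0.39, STAR 2.7.10a (danRer11), Picard 3.0.0, featureCounts 2.0.4 and DESeq2 1.36.0. Duplicates and rRNA, mitochondrial and multimapping reads had been removed. The deposited values are a score: counts that the authors normalised with DESeq2 size factors and rounded. Strand use in counting is not stated in the sources used here, so for the 14 OXPHOS genes that overlap another listed gene reads of the 2 genes may be mixed.

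limma 3.58.1 in R 4.3.3 was fitted to log2(value + 1) with an intensity trend and genotype as the only term, for the 16383 of 17835 genes with a mean above 5, with Benjamini-Hochberg adjustment over all of them. Fold changes are on that scale, which understates changes of low genes. The criteria were an adjusted p under 0.05 and a change over 1.5-fold. The labels number 3 pools per genotype. They do not say that equal numbers belong together, and deviations of same-numbered libraries correlated at -0.12, 0.13 and -0.14, so numbers were not treated as pairs. The values were already normalised, so the library sums of 11136966 to 11847536 do not give the sequencing depth. Counting error matters mainly for genes with low counts.

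Members and lists were chosen with earlier results of these data known. Genes named singly are those with an unadjusted p under 0.05 or past the criteria, the lowest and highest fold change (mean at least 50) and the highest mean of each complex, preset subunits and isoform pairs; others named were chosen after their values were seen. The entry dld of the citric acid cycle list was left out because the table describes it as Delta-like protein D. All 99 identifiers were in a separate name table, 83 under the same symbol. Levels were not compared between genes, since transcript lengths were not used here. The fit was tested on simulated data whose planted changes were larger than any seen in the OXPHOS genes, so that test does not cover changes of the sizes seen.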

Additional observations from a re-analysis of the deposited data

How the results depend on the processing

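With 3 pools per genotype, these data bound most changes at 2-fold, not at the sizes seen, and genes under about 50 counts are the least certain. The count of OXPHOS genes past the criteria was 0 under all 14 alternatives, where 25 to 247 of all genes tested passed. Of genes lower at an unadjusted p under 0.05, 7 with the main settings (6.97% of all genes), 4 were called with libraries scaled to equal totals (5.32%), 3 with no intensity trend (6.0%) and 1 to 21 with a library left out (4.82% to 9.49%). The count of OXPHOS genes higher was 0 (6.2% of all genes) and ran over 0 to 2 with a library left out (3.54% to 7.31%). The replicate block gave 0 OXPHOS genes past the criteria (45 of all genes) and 7 lower (6.38% of all genes). The median over complex III was -0.13 and ran over -0.32 to -0.022 with a library left out.

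Of the 47 OXPHOS genes that the naming rule took, 31 kept their sign under every alternative that gave them a value, and genes with a mean below 50 had none under the filter at that level. OXPHOS genes named outside the rule were not rerun one by one. With libraries scaled to equal totals, 4 turned: cox5ab (0.015), cox6b1 (0.032), cyc1 (0.047) and uqcrc2b (0.026). The median of all genes was then 0.07. Leaving out a library in turn gave ranges across 0 for 16 genes: atp5fa1 (-0.046 to 0.13), atp5if1a (-0.090 to 0.12), atp5if1b (-0.20 to 0.033), atp5meb (-0.14 to 0.017), cox5ab (-0.18 to 0.044), cox6a2 (-0.091 to 0.20), cox6b1 (-0.16 to 0.076), cox7a1 (-0.037 to 0.46), cyc1 (-0.13 to 0.11), ndufa4l2a (-0.64 to 0.21), ndufa9a (-0.067 to 0.066), ndufv1 (-0.16 to 0.0043), sdhb (-0.13 to 0.12), sdhdb (-0.18 to 0.0055), uqcrc2a (-0.099 to 0.15) and uqcrc2b (-0.14 to 0.058). The cause was not tested.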
